A study of Mus musculus with 6 samples.

Results

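The glutathione system of the jejunum was followed through 37 genes in mice with a deletion of Hnf4a in the intestinal epithelium. They were taken by symbol from the annotation of the array: the cytosolic and mitochondrial glutathione transferases of the alpha, kappa, mu, omega, pi, theta and zeta classes, the microsomal transferases, the glutathione peroxidases, and the genes Gclc, Gclm, Gss, Gsr, Ggct and Glrx. Of 40 mouse symbols that match this rule, 37 had a probe set that the annotation pairs with 1 gene only, out of 18193 genes measured that way. Ggt1, Gsta1 and Gstp2 had none and were not analysed here. Each gene is given by its brightest such probe set, judged by the mean over the 6 arrays.

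The mutants were 3 mice with a conditional deletion of Hnf4a by a Villin-Cre transgene, a transgene active in the intestinal epithelium. Hnf4a encodes a nuclear receptor of gut, liver and kidney epithelia. They were set against 3 control littermates. All 6 mice were 7 months old, all carried the strain name B6.129X1(FVB)-Hnf4atm1.1Gonz/J, all received ketamine and xylazine before death, and each had an array of its own. The labels do not state the Cre and floxed-allele genotype of the controls. The series text names the distal jejunum as the tissue, while the sample labels speak of biopsies of total jejunum. No step that isolates the epithelium is named, and fewer cells of a type cannot be told apart from less RNA per cell. Values are the authors' deposited log2 signals, and differences are mutant minus control on that scale.

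Glutathione is a tripeptide of glutamate, cysteine and glycine that cells hold as their main soluble thiol. Glutamate-cysteine ligase, made of the catalytic subunit Gclc and the modifier subunit Gclm, starts its synthesis, and Gss finishes it. Transferases join it to electrophiles such as drugs and products of lipid peroxidation, peroxidases spend it to reduce hydroperoxides, and Gsr recycles the oxidised form with NADPH. In the small intestine these enzymes meet dietary toxins and oxidised lipids, and many of their genes are targets of the transcription factor NRF2.

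Hnf4a itself read 8.83, 8.83 and 9.82 in mutants 1, 2 and 3, against 11.82, 11.76 and 11.57 in controls 1, 2 and 3. The groups did not overlap, and mutant 3 kept the highest signal of the mutants. Rank correlations between arrays lay between 0.980 and 0.987. Markers of other gut segments and tissues differed between arrays. The ileal bile acid binding protein gene Fabp6 read 9.57, 10.03 and 9.80 in mutants, against 9.15, 6.67 and 3.37 in controls. The ileal bile acid transporter gene Slc10a2 read 3.99, 4.40 and 6.98 in mutants, against 3.31, 2.93 and 3.26 in controls. Of the 10 ileum and colon markers, 7 lay above 0 and 3 below, and their summed signal was 12.12 to 12.48 in mutants and 12.38 to 12.72 in controls. Cubn, the intrinsic factor receptor gene on that list, read 9.69, 9.11 and 8.04 in mutants, against 10.53, 11.81 and 11.34 in controls. Jejunal lactase (Lct) was present on all arrays, at 11.48 to 12.22 in mutants and 12.34 to 12.62 in controls. The summed signal of 18 measured enterocyte and jejunum markers, of 20 on the list, was 16.66 to 16.81 in mutants and 16.82 to 16.93 in controls on the log2 scale, with a median difference of -0.10 and 0 markers past the test. T cell markers summed to 11.82 to 12.87 in mutants, against 12.07, 10.25 and 11.17 in controls 1, 2 and 3. Mutant 2 held fat transcripts, with a summed signal of 13.19 against at most 11.64 elsewhere, control 3 held pancreatic acinar transcripts (12.16 against at most 11.51), and Y-linked transcripts marked mutant 3 and control 1. The part that each of these had in the results below was not tested, beyond the values without an array or with a covariate.

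Gsta4 was the 1 gene of the 37 that passed the test (limma, Benjamini-Hochberg over all 18193 genes, adjusted p under 0.05). It fell. No gene of the set rose past the test, and 36 did not pass. The share called was 2.70% here and 0.528% over all genes, which 1 gene cannot tell apart from the background. Before adjustment, limma gave a p under 0.05 to 15 of the 37 genes with lower and 4 with higher signal in mutants. That is 40.5% and 10.8%, where 6.85% and 5.24% of all genes stood (12.1% in either direction). In all, 23 of the 37 genes (62.2%) lay below 0, against 53.3% of all genes, and 4 had an adjusted p under 0.1, against 1.36%. All 3 mutants lay below all 3 controls in 14 of the 37 genes, or 37.8%, against 10.2% of all genes, and above them in 2, or 5.41%, against 6.93%. Brighter genes separate more often: of the 12173 with a mean above the median probe set, 9% were lower and 6.83% higher before adjustment, 12% had all mutants below and 7.96% above all controls, and 0.756% passed the adjusted test. Of the 37 genes, 5 lay under the median probe set on all 6 arrays and 32 did not. The median difference of the set was -0.10, with a range of -1.41 to 0.58, and that of all genes was -0.01. The enterocyte and jejunum markers lay the same way, also with a median of -0.10, 14 of 18 below 0 and 4 lower and 1 higher before adjustment. Their part in the result was not tested. No gene of the set was at least 2-fold higher, and 4 were at least 2-fold lower. These 4 were Gstm3, Gstm6, Gsta4 and Gstk1.

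**Figure D1:**
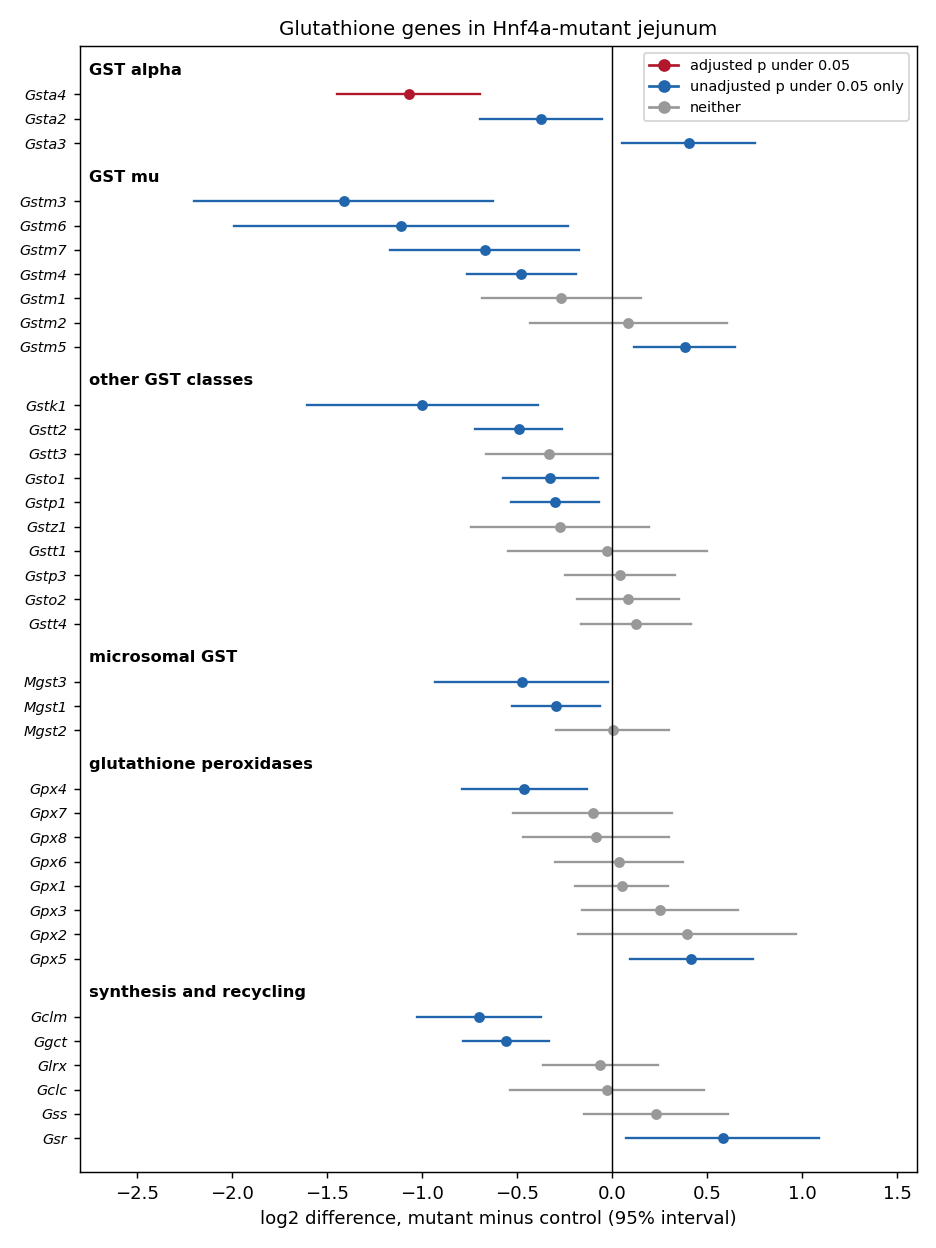
Log2 difference of the 37 genes, mutant minus control, with its 95% interval from limma (3 arrays each), grouped by role. Red marks the gene with an adjusted p under 0.05 (Gsta4, -1.07), blue an unadjusted p under 0.05 only, and grey neither. Most coloured points lie left of 0, with Gstm3 farthest at -1.41 and Gsr farthest right at 0.58.

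The alpha class holds the transferases that handle steroids, peroxides and aldehydes. Gsta4, which prefers 4-hydroxynonenal and related aldehydes of lipid peroxidation, read 7.23, 7.05 and 7.52 in mutants 1, 2 and 3, against 8.23, 8.18 and 8.61 in controls 1, 2 and 3. Every mutant lay below every control, and the gap between the groups was wider than the range within either. The difference was -1.07 ± 0.16 (SE), a 2.10-fold lower signal (limma, adjusted p = 0.0378). The call rested on the full set of arrays, since the adjusted p was 0.0860, 0.110, 0.0824, 0.105 and 0.160 without mutant 1, mutant 2, control 1, control 2 and control 3. Without mutant 3 it was 0.0289. Over all 45037 probe sets its adjusted p in limma was 0.0654, so 0 of the 54 probe sets of these genes passed there, where 0.193% of all probe sets did. Of the 17 further probe sets of the genes, 14 lay below 0. Before adjustment 3 of them (for Gstm3, Gclm and Gpx4) were lower and 0 higher at p under 0.05 in limma, against 5.61% and 4.08% of all probe sets.

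Both other alpha genes had low signal on the probe sets that are theirs alone. Gsta2 read 3.27, 3.23 and 3.43 in mutants, against 3.42, 3.75 and 3.89 in controls. It lay under the median probe set on all 6 arrays, where signal is close to background, and its groups overlapped at mutant 3 and control 1. A brighter probe set that Gsta2 shares with other alpha-class genes was not counted. Gsta3 read 5.35, 5.11 and 4.94 in mutants, against 4.53, 4.69 and 4.98 in controls. The groups overlapped through mutant 3 and control 3, and the difference of 0.40 ± 0.15 (SE) did not pass (limma, adjusted p = 0.341).

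The largest differences of the 37 genes, and the widest 95% intervals, were those of Gstm3 and Gstm6 in the mu class. Its 7 genes stand next to one another on mouse chromosome 3, in the order Gstm5, Gstm7, Gstm6, Gstm3, Gstm2, Gstm1 and Gstm4 (RefSeq, GRCm38.p6, used for gene order). None passed the test over all genes. The 3 genes from Gstm7 to Gstm3 differed by -0.67, -1.11 and -1.41, whereas Gstm5 at one end differed by 0.38 and Gstm2 next to Gstm3 by 0.08. All mutants were below all controls in Gstm3, Gstm4, Gstm6 and Gstm7, and above them in Gstm5.

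Gstm3 read 9.05, 8.53 and 8.11 in mutants 1, 2 and 3, against 9.81, 9.41 and 10.70 in controls 1, 2 and 3. Control 3 stood above both other controls, and mutant 3 was lowest of all. The difference was -1.41 ± 0.34 (SE), with a 95% interval of -2.20 to -0.62 (limma, adjusted p = 0.149). The probe set behind these values carries the suffix that Affymetrix gives to probe sets shared between related transcripts. A further Gstm3 probe set without that suffix read 6.47, 6.65 and 5.62 in mutants, against 7.46, 6.91 and 8.42 in controls. It kept the same separation of groups, with a difference of -1.35 ± 0.40 (SE).

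Gstm6 read 4.65, 5.07 and 4.95 in mutants, against 5.61, 5.38 and 7.02 in controls. Control 3 lay far above both other controls, and the difference was -1.11 ± 0.38 (SE) with all arrays and -0.61 without control 3. Gstm7 read 4.52, 4.86 and 4.22 in mutants, against 4.96, 5.03 and 5.62 in controls. Control 3 was again the highest array, and the difference was -0.67 ± 0.22 (SE). A further Gstm7 probe set differed by -0.24 ± 0.13 (SE), with overlapping groups.

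Gstm4 read 5.52, 5.45 and 5.21 in mutants, against 5.79, 5.80 and 6.04 in controls. Gstm5, a mu enzyme best known from brain and testis, went the other way at 8.54, 8.47 and 8.28 in mutants, against 8.05, 7.93 and 8.18 in controls. The lowest mutant and the highest control of Gstm5 were 0.11 apart, and its difference of 0.38 ± 0.12 (SE) did not pass (limma, adjusted p = 0.243). Gstm1, a main mu enzyme of liver, and Gstm2 overlapped between groups, with intervals of -0.69 to 0.15 and -0.43 to 0.60. Mu genes are close in sequence, so signal on one probe set can come in part from a neighbour.

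**Figure D2:**
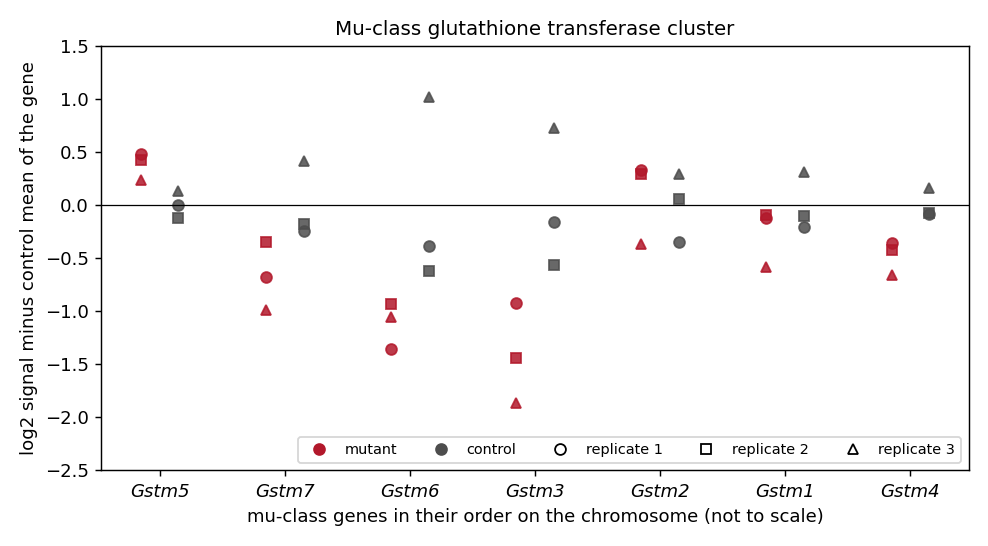
Mu-class genes in chromosome order (horizontal axis, not to scale), each array's log2 signal minus the control mean of that gene (vertical axis). Mutants are red and controls grey, with marker shape for the replicate number. Control 3 (grey triangle) is the highest control in all 7 genes, by 1.01 above the control mean in Gstm6, and mutants lie above all controls only in Gstm5.

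Promoter windows of Gstm3 and Gstm5 are shown because these genes of one cluster had opposite signs. Each covers 250 bases before to 50 after the annotated start (RefSeq, GRCm38.p6), written 5′ to 3′ along the gene. Capitals mark TGACNNNGC, the core of the antioxidant response element bound by NRF2, and CAAAGTC, part of the stretch bound by HNF4 factors, both searched on both strands.
Gstm3 (chr3:107969125-107969424, minus strand): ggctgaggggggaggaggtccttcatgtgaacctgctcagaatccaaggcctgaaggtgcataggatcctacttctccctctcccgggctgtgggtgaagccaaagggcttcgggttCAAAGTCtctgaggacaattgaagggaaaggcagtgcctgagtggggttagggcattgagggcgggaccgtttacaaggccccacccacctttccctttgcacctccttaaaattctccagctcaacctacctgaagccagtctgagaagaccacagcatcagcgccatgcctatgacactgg
Gstm5 (chr3:107895604-107895903, plus strand): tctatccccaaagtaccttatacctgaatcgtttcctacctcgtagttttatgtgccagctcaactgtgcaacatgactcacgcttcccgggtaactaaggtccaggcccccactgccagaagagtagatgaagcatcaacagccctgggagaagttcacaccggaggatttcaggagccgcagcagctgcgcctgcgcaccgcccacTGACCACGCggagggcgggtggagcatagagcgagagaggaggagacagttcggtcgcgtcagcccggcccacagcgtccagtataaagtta
CAAAGTC began 133 bases before the start of Gstm3, and TGACNNNGC 42 bases before that of Gstm5. Windows were found for 33 of the 37 genes. Gclc, Gsr, Gsta4 and Gstt2 were not among them. Some of the 33 have several, 46 in all. TGACNNNGC was in 6 of the 46 windows (13.0%), those of Gclm, Ggct, Gsta3, Gstm5, Gstm7 and Mgst1, a share near the 12.4% of all 32851 promoter windows. CAAAGTC was in 4 of the 46 (8.70%), those of Gstm3 and Mgst3 and a pair of overlapping windows of Glrx, and in 4.44% of all windows. The longer HNF4 stretch CAAAGTCCA, which contains CAAAGTC, was in 0 of the 46 and in 0.475% of all windows. Genes with the same match differed in both directions, as Gstm5 and Gsta3 were higher and Gstm7 and Mgst1 lower in mutants.

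Among the other soluble classes, 7 of 10 genes were lower in mutants, with a median of -0.29, and none passed. Gstk1, the kappa-class enzyme of mitochondria and peroxisomes, read 8.69, 8.33 and 8.05 in mutants, against 9.04, 9.08 and 9.96 in controls. The groups were apart, with control 3 again highest, and the means were 8.36 ± 0.32 in mutants and 9.36 ± 0.52 in controls (SD, n = 3 each; limma, adjusted p = 0.179). Without control 3 the difference was -0.70. Gstt2, a theta-class enzyme, varied little within groups, at 7.71, 7.89 and 7.83 in mutants, against 8.24, 8.32 and 8.35 in controls. Its difference of -0.49 ± 0.10 (SE) lay between -0.53 and -0.44 with any 1 array left out, but did not pass (limma, adjusted p = 0.0907). Gsto1, an omega-class thioltransferase and dehydroascorbate reductase, read 11.47, 11.55 and 11.27 in mutants, against 11.77, 11.73 and 11.76 in controls. The groups were apart, by a mean difference of -0.33 ± 0.11 (SE), but a further Gsto1 probe set differed by -0.09 ± 0.13 (SE) with overlapping groups.

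Gstp1, the pi-class enzyme, also had every mutant below every control, with 12.58 ± 0.07 in mutants and 12.88 ± 0.10 in controls (SD, n = 3 each). The near-identical Gstp2 had no probe set of its own here, so the 2 genes may share this signal. Gstt3 had all mutants below all controls, at -0.33 ± 0.14 (SE) with all arrays and -0.17 without mutant 3. Its 95% interval of -0.67 to 0.00082 just crossed 0. The 95% intervals of Gstz1, Gstt1 and Gstp3 also crossed 0, and their groups overlapped. Gsto2 and Gstt4 lay under the median probe set on all 6 arrays.

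The microsomal transferases are membrane proteins, some of which also act in leukotriene synthesis. Mgst1, which also has peroxidase activity, read 11.38, 11.61 and 11.48 in mutants, against 11.81, 11.78 and 11.78 in controls. All mutants were below all controls, and the difference was -0.30 ± 0.10 (SE; limma, adjusted p = 0.283). Mgst3 read 9.66, 10.44 and 10.09 in mutants, against 10.38, 10.50 and 10.74 in controls. Its groups overlapped at mutant 2 and control 1, and the difference was -0.48 ± 0.20 (SE) with all arrays and -0.28 without mutant 1. Mgst2 differed by 0.00 ± 0.13 (SE), with a 95% interval of -0.30 to 0.30, at 10.88, 11.20 and 10.85 in mutants, against 10.92, 10.89 and 11.12 in controls.

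The peroxidases did not share a direction: 3 of 8 were lower and 5 higher in mutants, with a median of 0.04, and none passed. Gpx4, which reduces phospholipid hydroperoxides in membranes and guards against ferroptosis, read 10.93, 11.21 and 10.74 in mutants, against 11.37, 11.31 and 11.58 in controls. All mutants were below all controls, by -0.46 ± 0.14 (SE), and a further Gpx4 probe set differed by -0.37 ± 0.12 (SE), also without overlap. Neither passed (limma, adjusted p = 0.249 over genes and 0.366 over probe sets). Gpx1, the common cytosolic peroxidase, differed by 0.05 ± 0.11 (SE), with a 95% interval of -0.20 to 0.29.

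Gpx2, the peroxidase of the gut epithelium, read 10.15, 10.97 and 11.10 in mutants, against 10.47, 10.07 and 10.52 in controls. Mutant 1 lay within the controls and the others above them, so the difference of 0.39 ± 0.25 (SE) was 0.69 without mutant 1, 0.21 without mutant 3 and 0.25 without control 2. Gpx3, the secreted plasma form that fat and kidney also make, differed by 0.25 ± 0.18 (SE). Gpx3 read 9.43, 9.35 and 8.78 in mutants 1, 2 and 3, against 8.89, 9.07 and 8.85 in controls 1, 2 and 3. Fat markers summed highest in mutant 2 (13.19) and lowest in mutant 3 (10.80), and their part in Gpx3 was not tested. Gpx5 and Gpx6 lay under the median probe set on every array. Gpx5 read 3.74, 3.73 and 3.72 in mutants, against 3.56, 3.35 and 3.03 in controls. Gpx7 and Gpx8, of the endoplasmic reticulum, differed by -0.10 ± 0.18 and -0.09 ± 0.17 (SE).

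**Figure D3:**
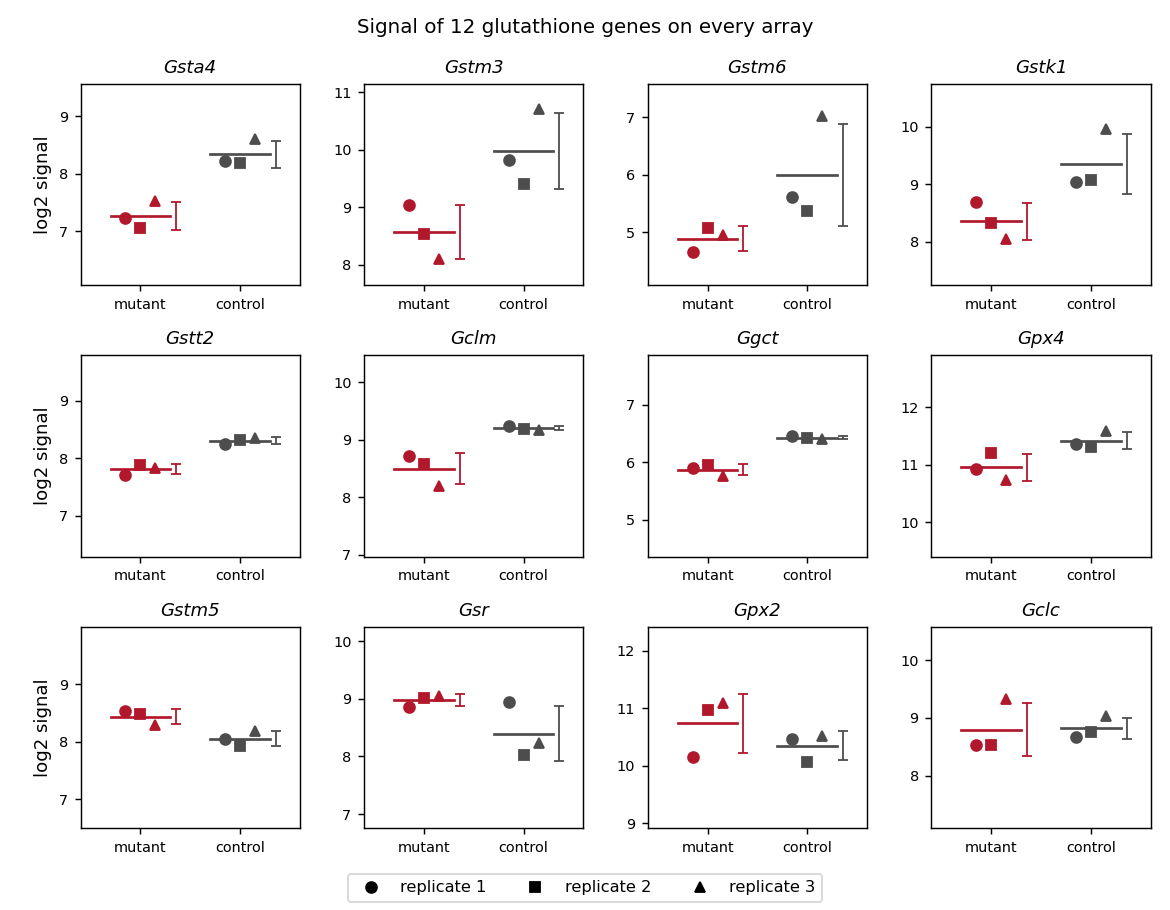
Log2 signal of 12 of the 37 genes on each array (vertical axis, the same span in each panel), with mutants in red to the left of controls in grey. Lines mark group means and bars the SD (n = 3 each). Gsta4, Gstt2, Gclm and Ggct have groups that are wide apart for their spread, whereas in Gstm3, Gstm6 and Gstk1 control 3 lies above both other controls.

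Of the 6 genes of synthesis and turnover, 4 were lower and 2 higher in mutants, with a median of -0.04, and none passed. The subunits of glutamate-cysteine ligase did not read alike, though the difference between them was not tested. Gclm, the modifier subunit that raises the affinity of the ligase for its substrate, read 8.71, 8.57 and 8.20 in mutants, against 9.24, 9.19 and 9.17 in controls. The controls spanned 0.07 and every mutant lay below them. The difference was -0.70 ± 0.14 (SE), a 1.63-fold lower signal (limma, adjusted p = 0.0907). A further Gclm probe set read 6.57, 6.78 and 5.94 in mutants, against 7.06, 7.19 and 7.36 in controls, and also kept the groups apart. Gclc, the catalytic subunit, read 8.53, 8.53 and 9.33 in mutants, against 8.67, 8.76 and 9.03 in controls. Mutant 3 held the highest Gclc and the lowest Gclm of all arrays, and the Gclc groups overlapped, with a 95% interval of -0.54 to 0.48.

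Ggct, which cleaves gamma-glutamyl amino acids in glutathione turnover, read 5.90, 5.95 and 5.76 in mutants, against 6.46, 6.42 and 6.41 in controls. The groups were far apart for their spread, and the difference of -0.56 ± 0.10 (SE) had the smallest adjusted p of the 36 genes that did not pass (limma, adjusted p = 0.0655). Both other Ggct probe sets lay near background. Gsr, the reductase that recycles oxidised glutathione, read 8.86, 9.02 and 9.06 in mutants, against 8.94, 8.02 and 8.23 in controls. Control 1 lay among the mutants, and the difference of 0.58 ± 0.22 (SE) was 0.85 without control 1 and 0.39 without control 2. A further Gsr probe set differed by 0.35 ± 0.21 (SE), also with overlap. Gss differed by 0.23 ± 0.16 (SE) and the glutaredoxin gene Glrx by -0.06 ± 0.13 (SE), both with overlapping groups. Further probe sets differed by 0.06 ± 0.12 (SE) for Gss and -0.25 ± 0.24 (SE) for Glrx, also with overlap.

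The promoter windows of Gclm and Ggct, lower in every mutant, both held TGACNNNGC, marked in capitals as above.
Gclm (chr3:122245307-122245606, plus strand): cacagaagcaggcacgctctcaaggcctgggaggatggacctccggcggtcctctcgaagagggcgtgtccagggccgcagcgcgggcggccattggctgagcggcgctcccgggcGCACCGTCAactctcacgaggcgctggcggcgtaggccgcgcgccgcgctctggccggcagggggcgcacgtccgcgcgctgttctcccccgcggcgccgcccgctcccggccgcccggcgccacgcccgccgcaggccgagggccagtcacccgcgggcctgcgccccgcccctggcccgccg
Ggct (chr6:54992818-54993117, minus strand): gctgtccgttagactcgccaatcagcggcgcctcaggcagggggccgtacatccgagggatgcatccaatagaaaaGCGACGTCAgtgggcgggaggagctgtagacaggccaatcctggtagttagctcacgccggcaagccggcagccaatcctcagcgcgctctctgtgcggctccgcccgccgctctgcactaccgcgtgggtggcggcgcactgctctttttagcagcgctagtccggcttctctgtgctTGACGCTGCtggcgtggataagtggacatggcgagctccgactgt
The match began 134 bases before the start of Gclm and 174 before that of Ggct, on the strand opposite to the gene, and Ggct held a second one after its start.

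The values of 6 lower genes, picked after they were seen, are set beside Fabp6. Control 1, with a Fabp6 signal of 9.15, was close to the 9.57 to 10.03 of the mutants, while control 3 read 3.37. Control 3 minus control 1 was 0.89 for Gstm3, 1.40 for Gstm6, 0.92 for Gstk1, 0.38 for Gsta4, -0.07 for Gclm and -0.05 for Ggct. Control 3 was the highest control for Gsta4, Gstm3, Gstm6 and Gstk1. Control 2, with a Fabp6 signal of 6.67, lay below control 1 for Gstm3 (9.41 against 9.81), Gstm6 (5.38 against 5.61), Gsta4, Gclm and Ggct. For Gstk1 it lay above control 1 (9.08 against 9.04). Control 3 was also the array with pancreatic acinar transcripts (summed signal 12.16), and their part was not tested.

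With Fabp6 as a covariate, added after its values were seen, Ggct differed by -0.59, Gclm by -0.74, Gsta4 by -0.83 and Gstm3 by -0.83. In the same fit Gstk1 differed by -0.43, Gstm7 by -0.29, Gstm6 by -0.27 and Gsr by 0.19. Gsta2 and Gpx5, both under the median probe set, differed by -0.10 and 0.11 there, and Mgst3 by -0.29. The fit left 3 residual degrees of freedom, and none of the 37 genes passed in it (limma, adjusted p = 0.806 for Gsta4). Fabp6 was higher in every mutant than in every control, so what goes with Fabp6 and what goes with the genotype cannot be told apart here.

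**Figure D4:**
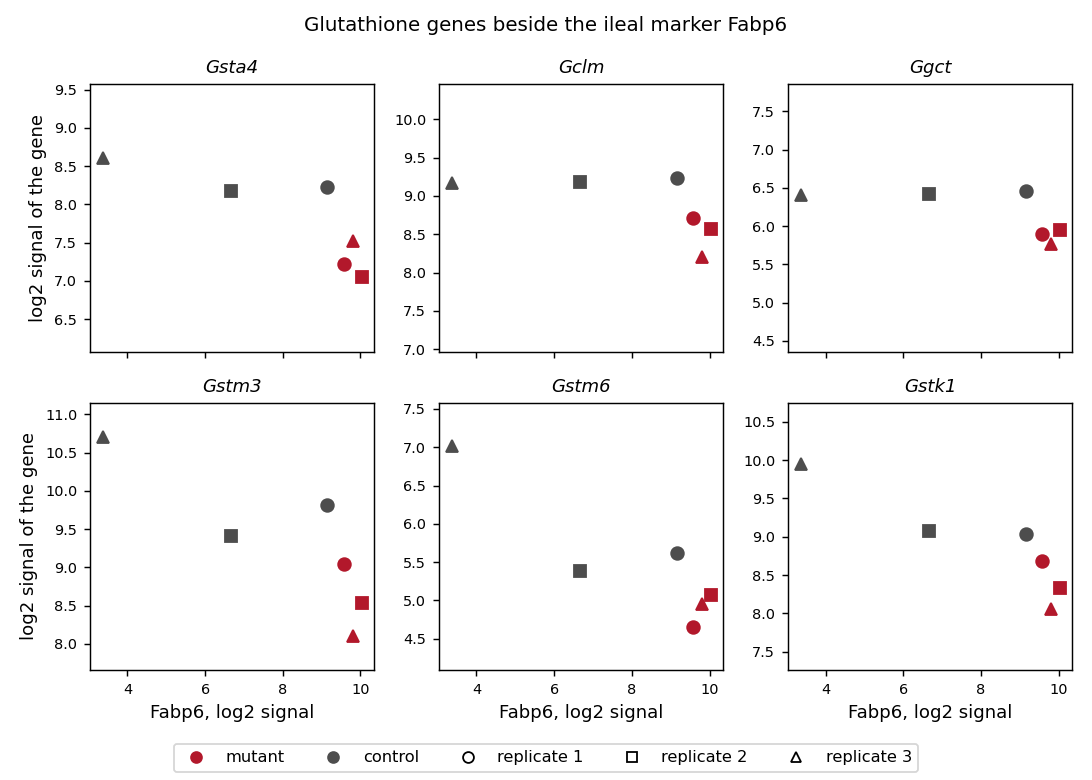
Log2 signal of 6 genes (vertical axes, the same span in each panel) against that of the ileal marker Fabp6 (horizontal axis), 1 point per array, with mutants in red and controls in grey. The 3 controls span 0.43 for Gsta4, 0.07 for Gclm and 0.05 for Ggct (upper row), and 1.29 for Gstm3, 1.64 for Gstm6 and 0.92 for Gstk1 (lower row). Control 3, with the lowest Fabp6 and with pancreatic acinar transcripts, is the highest control for Gsta4, Gstm3, Gstm6 and Gstk1.

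Around these enzymes, 74 further genes were measured, out of 80 symbols in 4 lists drawn widely around the pathway. Sepp1 and Selenop, both among the symbols, name the same gene. Of the 74, 3 fell, 1 rose and 70 did not pass, against 0.330% lower and 0.198% higher over all genes. The list of glutathione supply, breakdown and export held 23 genes, of which 2 fell, 1 rose and 20 did not pass, with a median of -0.30. Cth, which makes the cysteine that glutathione synthesis needs, read 7.78, 8.09 and 7.92 in mutants, against 8.95, 8.63 and 8.90 in controls. It fell by 0.90 ± 0.13 (SE) without overlap (limma, adjusted p = 0.0307).

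The 2 export pumps of glutathione conjugates that passed moved in opposite directions. Abcc2, the apical pump MRP2, read 7.80, 7.45 and 7.36 in mutants, against 8.42, 8.81 and 8.99 in controls, and fell by 1.20 ± 0.18 (SE; limma, adjusted p = 0.0319). Abcc1, the pump MRP1 of the basolateral membrane and of leukocytes, read 6.34, 6.51 and 6.58 in mutants, against 5.67, 5.81 and 5.88 in controls, and rose by 0.69 ± 0.11 (SE; limma, adjusted p = 0.0490). T cell markers lay the same way, with 11 of 11 measured above 0 and a median of 0.84, though 0 passed. Their summed signal was 11.82, 12.87 and 12.28 in mutants 1, 2 and 3, against 12.07, 10.25 and 11.17 in controls 1, 2 and 3. Control 1 thus lay above mutant 1 in this sum, but had the lowest Abcc1 of all arrays. Their part in the rise of Abcc1 was not tested. Left-out arrays gave adjusted p of up to 0.172 for Cth, 0.156 for Abcc2 and 0.176 for Abcc1, so each call depended on single arrays. Abcc2 kept its call without mutant 1 or control 1, Abcc1 without mutant 1, and Cth in none of the 6 refits. With the mean of all probe sets of a gene in place of the brightest, Cth and Abcc2 passed and Abcc1 did not. Over all the ways of processing that were tried, the difference of Abcc1 lay between 0.36 and 0.80.

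In the list of NRF2 regulators and NADPH supply, 1 of 17 genes fell, 0 rose and 16 did not pass, with a median of 0.06. The gene that fell was Ugdh, which makes UDP-glucuronate for conjugation. It read 9.57, 9.62 and 9.54 in mutants, against 10.14, 10.22 and 10.41 in controls, and fell by 0.68 ± 0.11 (SE; limma, adjusted p = 0.0434). The call of Ugdh was lost with any 1 array left out (adjusted p up to 0.208). Nqo1, a quinone reductase and classical NRF2 target, differed by -0.70 ± 0.14 (SE), and Nfe2l2, the gene of NRF2 itself, by -0.41 ± 0.10 (SE). Both had every mutant below every control, and neither passed (limma, adjusted p = 0.0912 and 0.169). The list did not share a direction: 10 of the 17 genes lay above 0, and 4 were lower and 3 higher at an unadjusted limma p under 0.05. Bach1 differed by 0.56 ± 0.18 (SE), with every mutant above every control. Maff differed by 0.64 ± 0.23 (SE) with overlapping groups, and passed without mutant 1 (limma, adjusted p = 0.0479). Hmox1 and Srxn1, also on this list, differed by 0.06 ± 0.14 and -0.06 ± 0.16 (SE).

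The list of other glutathione-dependent enzymes had 0 of 20 genes past the test and a median of -0.02. It also held Alox5ap, Faah and Vars, which are not glutathione-dependent enzymes. Alox5ap, the leukotriene pathway protein of myeloid cells and a relative of the microsomal transferases, read 7.28, 7.55 and 7.04 in mutants, against 6.12, 6.15 and 6.69 in controls. It was 1.96-fold higher (limma, adjusted p = 0.0839), and 10 of 11 measured myeloid markers lay above 0, with a median of 0.28. Before adjustment 4 of these markers were higher and 1, the bright Lyz2, lower at p under 0.05 in limma. Their summed signal was 11.99 to 12.17 in mutants and 12.08 to 12.22 in controls, and their part in the result was not tested. Clic4 and Faah differed by 0.60 ± 0.16 and -0.60 ± 0.20 (SE), and Faah by -0.37 without mutant 3. The list named selenoprotein synthesis had 0 of 14 genes past the test, 12 of them lower in mutants, with a median of -0.16. Several peroxidases need this synthesis for their selenocysteine. The list also held genes outside the synthesis itself, namely Txnrd1, Txnrd2, Txnrd3, Selenop, Lrp8 and Selenbp1. Sephs2, which makes selenophosphate, differed by -0.39 ± 0.11 (SE), Sepsecs, which makes selenocysteinyl-tRNA, by -0.52 ± 0.16 (SE), and the selenium-binding protein gene Selenbp1 by -0.56 ± 0.20 (SE). Sepsecs differed by -0.34 without mutant 1 and Selenbp1 by -0.32 without mutant 3.

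The 19 genes with a limma p under 0.05 before adjustment were picked on these same arrays. All 19 kept their direction with any 1 array left out, and 9 of them kept that p in every refit. Where groups do not overlap, leaving out 1 array cannot change the sign, so the kept direction is no separate support. In the 15 lower genes, control 3 was the highest control in 11, and mutant 3 the lowest mutant in 9. How often this holds over all genes is not given here, so it cannot be called particular to these genes.

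**Figure D5:**
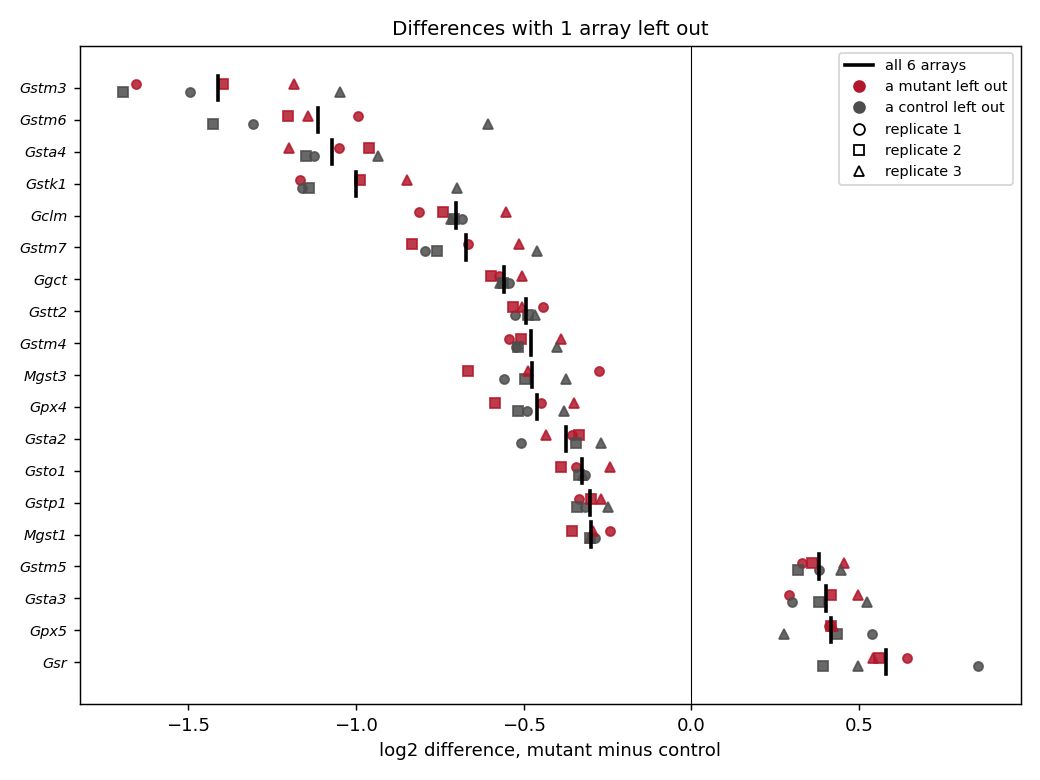
Log2 difference, mutant minus control (horizontal axis), of the 19 genes with an unadjusted p under 0.05, with all 6 arrays (black bars) and with 1 array left out (red for a mutant, grey for a control, shape for the replicate number). No gene crosses 0, which is fixed in advance for genes whose groups do not overlap. Gstm6 moves farthest, to -0.61 without control 3.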

How the data were processed

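Gene expression was measured on Affymetrix arrays in jejunum of 3 mutant and 3 control mice, 1 array each. The authors deposited log2 signals, as judged from their range (1.80 to 14.5, array medians 3.93 to 3.98). The steps from scanner to table (background, summary, normalisation) are named in none of the sources used here. Of 45101 probe sets, 64 control probe sets were left out, and 34945 of the remaining 45037 had 1 gene symbol. The brightest of these stood for each of 18193 genes. Mutants were set against controls by limma (version 3.58.1, under R 4.3.3) with moderated variances, two-sided, with group as the only term and Benjamini-Hochberg adjustment over all genes. The procedure was tested on simulated data with independent noise, which lacked the tissue and segment differences seen between these arrays. Precision is limited by the number of arrays.

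The genes, lists and tests were chosen with earlier results of these data known. Values on each array are given for Hnf4a, for genes past the test, for the 3 smallest p in each role and for genes whose groups do not overlap with a log2 difference of at least 0.5. Of each pathway list, genes past the test and the 3 smallest p are named. Gclc, Fabp6, Slc10a2, Cubn, Lct and other examples were picked after their values were seen. Alternatives covered normalisation, low values, probe set choice, variance model, covariates and arrays left out.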

Additional observations from a re-analysis of the deposited data

How the results depend on the processing

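With all 6 arrays, 1 of the 37 glutathione genes and 4 of the 74 pathway genes passed limma's test, and 0 of the 54 probe sets. The pathway genes were Cth, Abcc2, Abcc1 and Ugdh. No gene of either set passed with a floor at the 20th percentile, without moderation of the variance, without mutant 2 and control 3 together, or with Fabp6 as a covariate (0 of 37 and 0 of 74 each). Quantile normalisation left 0 of the 37 genes (Gsta4, adjusted p = 0.0509) and centring on array medians left 2 pathway genes. A trended, robust prior and array weights each added 1 probe set, that of Gsta4. With 1 array left out, 0 to 1 of the 37 genes and 0 to 3 pathway genes passed. The count over all genes, 96 with all arrays, was 41 without mutant 2, 24 without control 2 and 22 without control 3. At an adjusted p under 0.1, 4 of the 37 genes passed, against 1.36% of all genes. At 0.01 none of the 37 (0) and none of the pathway genes (0) passed. Before adjustment, 19 of the 37 and 27 of the 74 had a limma p under 0.05, against 12.1% of all genes. Of the 27, 20 were lower and 7 higher, against 6.85% and 5.24% of all genes.

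Replicate numbers are shared between the groups, but deviations of same-numbered arrays correlated at 0.07, 0.07 and -0.02, so the numbers were not taken as pairs. With the replicate number as a block, 1 of the 37 genes, 0 pathway genes and 1 probe set passed.

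The difference of 26 genes kept its sign in every setting that tested it, and that of 11 did not. Gsto2 is counted among the 26, though all its values lay under the floor at the 20th percentile, where no difference was left. None of the 11 passed in any setting. With Fabp6 as a covariate, reversed values were 0.18 for Gclc, -0.075 for Gpx1, -0.10 for Gpx6, 0.14 for Gpx7, 0.11 for Gpx8, 0.042 for Gstm1, -0.15 for Gstp3 and 0.29 for Gstt1. Without mutant 2 and control 3 they were 0.21 for Gclc, -0.016 for Gpx1, 0.015 for Gstt1 and -0.041 for Mgst2. Array weights gave 0.0019 for Glrx, and quantile normalisation 0.00064 for Gstt1. With 1 array left out, ranges that crossed 0 were -0.29 to 0.11 for Gclc, -0.20 to 0.028 for Glrx, -0.084 to 0.14 for Gpx6, -0.25 to 0.040 for Gpx7, -0.24 to 0.059 for Gpx8, -0.090 to 0.31 for Gstm2, -0.028 to 0.15 for Gstp3, -0.18 to 0.23 for Gstt1 and -0.11 to 0.072 for Mgst2. The cause was not tested. Signal near background limits the probe sets used for Gsta2, Gpx5, Gpx6, Gstt4 and Gsto2, and 95% intervals over the 37 genes were 0.45 to 1.76 wide on the log2 scale.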

Other observations

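A probe set that the annotation pairs with Gsta1, Gsta2 and 1 further symbol was left out of the counts above. It read 8.98, 8.78 and 9.63 in mutants 1, 2 and 3, against 10.03, 9.03 and 10.44 in controls 1, 2 and 3. The groups overlapped, since control 2 lay below mutant 3. Its signal cannot be assigned to 1 of these genes. The difference was -0.70 ± 0.36 (SE; limma over probe sets, adjusted p = 0.596).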
